A study of Mus musculus with 48 samples.

Results

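The 6 columns headed WT of a table of probe signals from mouse brain were described on their own, as the profile of wild-type tissue and its variation from one captured area to the next. They were chosen by their headings and are 6 of the 16 columns in the table, whose other 10 columns carry transgenic genotypes and were not used here. The signals came from GeoMx digital spatial profiling, in which probes hybridized to RNA in a tissue section carry tags that light releases from a chosen area, and the tags are then sequenced. The sections were frozen sections of brain perfused with fixative, and areas were chosen after immunofluorescence for TMEM119, a surface protein of microglia, and GFAP, the intermediate filament of astrocytes.

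Wild type is the only genotype here, no transgene, knockout or treatment is named for it, and no source used here gives its age. The titles name 48 segments in 24 areas, with each marker named once per area, but no column heading carries a marker or an area number. The design text speaks of microglial expression in these animals, and on that basis each column was read as a TMEM119-positive segment. The series also describes 6 areas per brain slice, so the 6 columns may come from the same slice or the same animal. The spread given below is therefore a spread over captured areas and not over animals, and no test was run on it.

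Brain tissue holds neurons, which carry most of the RNA, together with astrocytes, oligodendrocytes that wrap axons in myelin, microglia, which are its resident macrophages, and vessels. An area of a section captures every process that crosses it, so a segment outlined on a microglial protein also takes in parts of its neighbours. Neurons of different brain areas use different transmitters and calcium-signalling proteins, white matter is rich in myelin, and microglia are known for complement C1q and lysosomal proteases. In such captured areas fewer cells of a type and less RNA per cell cannot be told apart.

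Besides 19962 targets, the 19963 rows of the table include 1 negative control probe. Each value was divided by the negative probe of its column, and this ratio is the level given below unless another scale is named. Dividing by the step between values showed 1194199 to 2548495 implied counts per column, with 55 to 118 counts for the median target and 49.4 to 106 for the negative probe. The median target thus had only 55 counts in the shallowest column, and ratios of weak targets are the least exact. Most targets lay near background, as the negative probe stood at 0.859 to 0.918 of the column median. A ratio over 1.5 in all 6 columns was taken as detected and was met by 1520 targets, 7.61% of all, while 418 targets (2.09%) were over 2 in all columns. The last targets to meet the limit were Ryk and Stmnd1, with a lowest ratio of 1.505, and the first to miss it were Mfap1a, Meis1 and Atn1, with 1.499.

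Genes for vomeronasal, olfactory and taste receptors, which brain cells are not known for, served as a gauge of background. Of 1154 such targets, 23 (1.99%) were detected and 1 was over 2 in every column. That target was Olfr165, at 3.16, 2.88, 3.17, 3.52, 2.75 and 3.28 times the negative probe in columns 1 to 6. The median ratio of the receptor targets was 0.945, and the central 95% of them lay between 0.648 and 1.70. A mean ratio near 1.5 therefore overlaps the range of these receptors, whereas a mean ratio over 1.70 lies outside their central range, which Olfr165 also exceeded.

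Columns 5 and 6 stood apart from the others. Over the detected targets, deviations from the 6-column mean correlated between columns 5 and 6 with r = 0.51 (1520 targets, which are not independent), and a chi-square of their implied counts came to 1.16 per degree of freedom. This was the lowest of the 15 pairs, which ran to 2.40, so repeated capture of 1 area in both columns was not tested beyond this value. Columns 2 and 3 also deviated together (r = 0.43). Columns 1 and 3 were the highest for most microglial targets, as described below. Some results that rest on columns 5 and 6 or on columns 1 and 3 are given with and without them. Other correlations are given over all 6 columns only.

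Promoter sequences are shown here for targets that stand for the 4 groups of targets described below as varying together. Nrgn led the largest group, Ppp1r2 belonged to the group led by Penk, C1qb led the complement and lysosomal group, and Mobp and Gfap belonged to the myelin group. Each runs from 250 bases before to 50 bases after the gene's start in RefSeq, build GRCm38.p6, and is written 5′ to 3′ on the gene's own strand. Capitals mark every match, on either strand, to the TATA box TATAAA, the GC box GGGCGG bound by SP1, the core GAGGAA recognised by ETS factors such as PU.1, the core ACAAAG of SOX factors or the cyclic AMP response element TGACGTCA. Overlapping matches run together.
Nrgn (chr9:37552696-37552995, minus strand): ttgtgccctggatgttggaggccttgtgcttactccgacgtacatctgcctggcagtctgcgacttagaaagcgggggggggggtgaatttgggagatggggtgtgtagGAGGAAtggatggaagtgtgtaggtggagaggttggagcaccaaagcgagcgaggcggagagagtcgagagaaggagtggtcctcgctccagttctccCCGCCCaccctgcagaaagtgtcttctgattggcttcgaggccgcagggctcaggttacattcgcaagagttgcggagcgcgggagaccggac
Ppp1r2 (chr16:31275228-31275527, minus strand): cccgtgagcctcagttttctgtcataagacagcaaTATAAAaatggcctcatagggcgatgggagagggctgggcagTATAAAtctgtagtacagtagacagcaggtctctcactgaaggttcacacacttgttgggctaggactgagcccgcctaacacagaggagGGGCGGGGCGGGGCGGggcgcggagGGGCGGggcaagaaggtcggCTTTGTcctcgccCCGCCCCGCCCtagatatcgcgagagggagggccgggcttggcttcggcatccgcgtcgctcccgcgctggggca
C1qb (chr4:136886151-136886450, minus strand): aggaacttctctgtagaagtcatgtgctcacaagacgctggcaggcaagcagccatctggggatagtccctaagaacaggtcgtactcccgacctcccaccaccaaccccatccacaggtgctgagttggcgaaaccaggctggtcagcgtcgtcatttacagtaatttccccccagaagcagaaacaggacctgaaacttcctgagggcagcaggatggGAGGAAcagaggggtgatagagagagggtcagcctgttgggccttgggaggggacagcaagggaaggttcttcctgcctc
Mobp (chr9:120149492-120149791, plus strand): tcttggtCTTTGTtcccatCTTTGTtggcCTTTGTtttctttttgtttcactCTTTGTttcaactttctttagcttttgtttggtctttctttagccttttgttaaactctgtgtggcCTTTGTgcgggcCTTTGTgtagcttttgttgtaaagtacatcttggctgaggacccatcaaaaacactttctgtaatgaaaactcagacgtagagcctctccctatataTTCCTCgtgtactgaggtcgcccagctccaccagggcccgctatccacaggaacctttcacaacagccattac
Gfap (chr11:102897151-102897450, minus strand): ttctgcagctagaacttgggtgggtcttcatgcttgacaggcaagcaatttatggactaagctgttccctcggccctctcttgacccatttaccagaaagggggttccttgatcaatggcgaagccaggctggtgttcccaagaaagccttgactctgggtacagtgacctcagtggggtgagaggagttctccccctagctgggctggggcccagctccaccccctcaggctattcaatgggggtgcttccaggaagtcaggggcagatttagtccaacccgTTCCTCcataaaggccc

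Of 32851 promoters of the same length, 35.7% held GGGCGG, 28.3% GAGGAA, 18.7% ACAAAG, 13.6% TATAAA and 1.79% TGACGTCA. Mobp held 6 matches to ACAAAG, 1 to GAGGAA and no match to GGGCGG. Ppp1r2 held 6 matches to GGGCGG, some of them overlapping, 2 to TATAAA and 1 to ACAAAG. Nrgn held 1 match to GGGCGG and 1 to GAGGAA, while C1qb and Gfap held 1 match to GAGGAA each. None of the 5 held TGACGTCA in this window. GC content was 43.3% in Mobp and between 55.7% and 62.3% in the other 4. These are matches of letters in a window, given as a description. RefSeq entries were found for 66 of the 100 detected targets with the widest spread.

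The strongest signals came from Chic2, a ubiquitin, an iron-storage and a set of neuronal calcium-signalling genes. No member of the microglial list was among the first 30, but Cst3, Apoe and Ctsd, which are grouped with C1qb below, were. Each target has its own probe, so ranks between targets compare probe signals and not transcripts per cell. Chic2, a small cysteine-rich membrane protein gene, had the highest mean ratio, at 16.0, 28.7, 20.4, 17.0, 26.6 and 17.3 in columns 1 to 6 (21.0 ± 5.40, SD, n = 6). Next was the polyubiquitin gene Ubb at 18.1, 27.0, 19.7, 19.2, 16.9 and 15.5. It was over 15 times the negative probe in all 6 columns and highest in column 2. Fth1, the ferritin heavy chain, stood at 35.4, 16.7, 13.9, 24.1, 7.07 and 7.95, with columns 1 and 4 highest and columns 5 and 6 lowest.

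Among calcium-signalling targets, Nrgn, which encodes neurogranin, a calmodulin-binding protein of dendritic spines, stood at 14.3, 37.0, 25.0, 12.0, 2.55 and 3.47. Camk2n1, an inhibitor of the calcium/calmodulin-dependent kinase CaMKII, stood at 10.6, 31.4, 24.6, 7.53, 8.49 and 9.14, and Camk2a, a subunit of that kinase, at 6.19, 13.7, 10.9, 4.86, 4.82 and 3.87. Both were highest in columns 2 and 3. The calmodulin gene Calm2 averaged 9.44 ± 2.81, whereas Calm3, which encodes the same protein, averaged 2.71 ± 0.808. Both were also highest in column 2 and then column 3. Of the 23 calmodulin and calcium-signalling targets listed, 17 were detected, 73.9% against 7.61% of all targets.

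Synaptic and membrane genes followed. Snap25, a SNARE protein of synaptic vesicle fusion, stood at 9.55, 25.5, 18.8, 12.3, 5.06 and 5.51, which is 5 to 6 in columns 5 and 6 and over 9 in the other 4. Syt1, the vesicle calcium sensor, averaged 6.44 ± 2.19, and Atp1b1, a subunit of the sodium pump, averaged 6.61 ± 2.10. Of 28 pan-neuronal targets 24 were detected (85.7% against 7.61% of all targets), and all 28 were over 1.5 in some column, as were 30.7% of all targets. Kif5a, a kinesin motor of axonal transport, averaged 7.12 ± 2.45, and the amyloid precursor protein gene App stood at 11.4, 16.8, 11.4, 11.0, 7.27 and 7.69. Ndrg4 (9.30 ± 2.72), Gnas, the stimulatory G protein alpha subunit (8.47 ± 4.00), and the neuropeptide-processing carboxypeptidase gene Cpe (8.41 ± 1.68) were also among the 30 targets with the highest mean ratio.

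Glial genes stood in the same range. Slc1a2, the main astrocytic glutamate transporter, stood at 7.63, 12.3, 9.92, 8.84, 8.61 and 6.09, and Glul, the glutamine synthetase of astrocytes, at 7.29, 7.11, 6.79, 6.24, 5.33 and 5.12. Apoe, a lipid carrier made mainly by astrocytes and microglia, stood at 9.77, 6.08, 9.42, 5.75, 6.81 and 5.18. Cst3 (cystatin C) averaged 10.3 ± 4.28, the prosaposin gene Psap 8.57 ± 1.57, and Mobp, a myelin-associated basic protein gene, 5.90 ± 4.18. The ratio of Glul differed by 1.42-fold between its highest and lowest column, while Mobp differed by 4.97-fold.

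Genes of basic cell functions completed the top 30. The glycolytic genes Gapdh and Aldoa averaged 8.01 ± 2.52 and 7.01 ± 2.54, the cyclophilin gene Ppia 6.38 ± 2.22, and the parathymosin gene Ptms 7.01 ± 0.913. Gm52800, a predicted gene, stood at 12.4, 13.3, 8.48, 11.4, 12.8 and 9.29, its lowest value being in column 3. In all, 54 targets had a mean ratio over 5 and 10 had one over 10. The 100 highest targets of each column had 49 in common, out of 173 that were among the 100 highest of any column.

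Of 78 cytosolic ribosomal protein targets 62 (79.5%) were detected, with Rpl31 at 4.91 ± 0.602 and Rps29 at 3.11 ± 0.582. Of 95 oxidative phosphorylation targets encoded in the nucleus 33 were detected. Among them were Cox4i1 and Cox5b, subunits of cytochrome c oxidase, at 4.84 ± 1.05 and 3.91 ± 0.525, and the ATP synthase subunit gene Atp5b at 4.80 ± 1.08. Of 27 glycolysis and citric acid cycle targets 18 were detected, of 25 cytoskeletal targets 20, of 18 heat shock and chaperone targets 10, and of 39 proteasome targets 12. All of these exceed the 7.61% of all targets.

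The microglial identity taken for the columns was set against its markers. Tmem119 itself stood at 1.04, 1.05, 1.09, 0.858, 0.932 and 0.847, at or near the negative probe in every column. Of 26 microglial targets 5 were detected, C1qb, Ctss, C1qc, C1qa and Aif1, which is 19.2% against 7.61% of all targets. Of the 26, 19 were over 1.5 in some column, 73.1% against 30.7%. Aif1, which encodes the marker protein IBA1, stood at 2.59, 2.23, 2.56, 1.79, 2.01 and 2.06. The growth factor receptor Csf1r stood at 3.09, 1.72, 2.86, 1.46, 1.60 and 1.71, the purinergic receptor P2ry12 at 2.26, 1.62, 1.86, 1.36, 1.34 and 1.24 and the fractalkine receptor Cx3cr1 at 2.06, 1.09, 2.01, 1.41, 1.54 and 1.33, none of them over 1.5 in all columns. Ptprc (CD45), Spi1 (PU.1) and Itgam (CD11b) did not exceed 1.5 in any column. The kinase and receptor in the title of the series, Lyn and Tlr4, stood at 1.34, 1.31, 1.51, 1.42, 1.09 and 1.16 and 1.52, 1.60, 1.44, 1.21, 1.17 and 1.18. The mean ratio of all 26 microglial targets was 1.25 to 2.49 per column and that of the 28 pan-neuronal targets 3.31 to 6.27, which are signals of different probes. Since Tmem119 and several other microglial markers were not above the detection limit, the columns are called by their headings and not by a cell type.

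Lists for other cell types differed in how many members were detected. Of 25 astrocyte targets 13 were detected, 52.0% against 7.61% of all targets, with Gfap at 6.88, 3.02, 2.52, 5.49, 2.84 and 2.81 and Clu (clusterin) at 3.66 ± 0.479, but the water channel Aqp4 was not detected, at 1.42, 1.31, 1.28, 1.01, 1.13 and 1.17. Oligodendrocytes had 4 of 23 detected (17.4%), with 20 over 1.5 in some column (87.0% against 30.7% of all targets), and endothelial cells 4 of 17 (23.5%), among them Eng (endoglin) at 2.90 ± 0.268. Of 15 targets for inhibitory neurons 3 were detected (20.0%), among them Gad1 and Lhx6, and Gad1, the GABA-synthesising decarboxylase, stood at 2.24, 3.39, 2.01, 2.15, 3.16 and 3.19. Of the targets for oligodendrocyte precursors (8), meningeal fibroblasts (13), erythrocytes (4), border macrophages and blood leukocytes (15), thalamus and midbrain (18) and hypothalamus (16), 0 were detected. With 7.61% of all targets detected, a count of 0 in lists this short is near the background share and is not read as a result about these cells or areas.

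**Figure D1:**
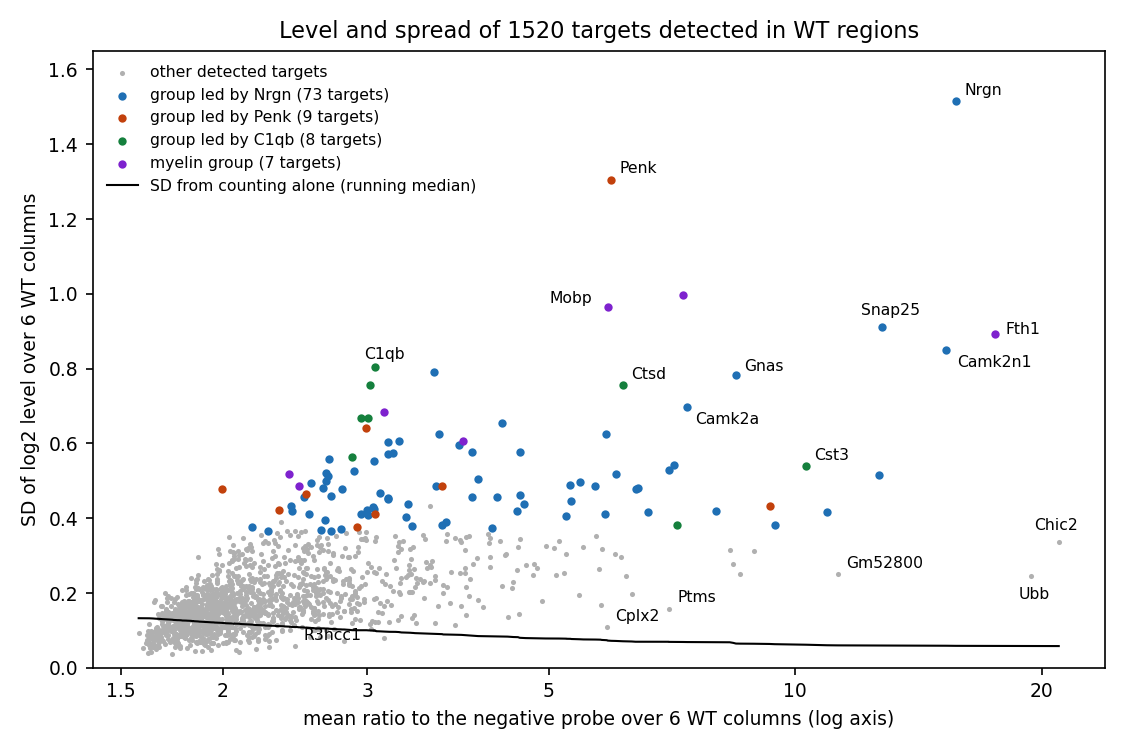
Mean ratio to the negative probe (x axis, log scale) against the SD of the log2 level over the 6 WT columns (y axis), 1 point per detected target (1520), with members of the 4 groups that vary together in colour and the black line for the SD that counting alone would give. Nrgn and Penk lie highest, at 1.52 and 1.31, while Ubb and Gm52800 combine a high ratio with an SD of 0.25 each.

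Spread between the columns was measured as the SD over the 6 columns of log2 of the signal over the column median, called the log2 level below. The median SD of the 1520 detected targets was 0.165, with quartiles of 0.124 and 0.231. Counting error alone, taken as Poisson error of the implied counts, would give a median of 0.118, and 1165 targets (76.6%) exceeded their own counting SD. A spread over 2 times the counting SD was seen in 417 targets (27.4%). On this log2 scale, a 2-fold or larger difference between the highest and lowest column was seen in 95 targets (6.25%), 41 targets had an SD over 0.5 and 2 had one over 1. Of the 100 detected targets with the highest mean ratio, 41 were also among the 100 with the widest spread.

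The 2 widest were neuronal genes that ran in opposite directions. Nrgn had an SD of 1.52 against 0.071 from counting, with a 14.5-fold difference in ratio between column 2 and column 5. Penk, which encodes the precursor of the enkephalin peptides, stood at 2.76, 2.74, 2.24, 1.82, 17.5 and 8.70 and had an SD of 1.31 against 0.089 from counting. Its highest value was in column 5, where Nrgn was lowest. Without columns 5 and 6 the SD of Nrgn was 0.72 and that of Penk 0.27. Nrgn was lowest and Penk highest in those columns, so these falls follow from leaving them out.

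Grouping of the 100 widest targets by the correlation of their log2 levels gave 4 groups of 5 or more, holding 97 of them. A correlation over 6 columns is a description, since the columns may come from 1 slice, and no p is attached to it. The groups are named by their member with the widest spread, except the group that holds myelin genes, which is called the myelin group. The first of 5 principal components of the detected targets took 53.5% of the spread and set columns 2 and 3 against columns 5 and 6, and the second took 21.2% and set columns 1 and 4 against columns 2 and 5.

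**Figure D2:**
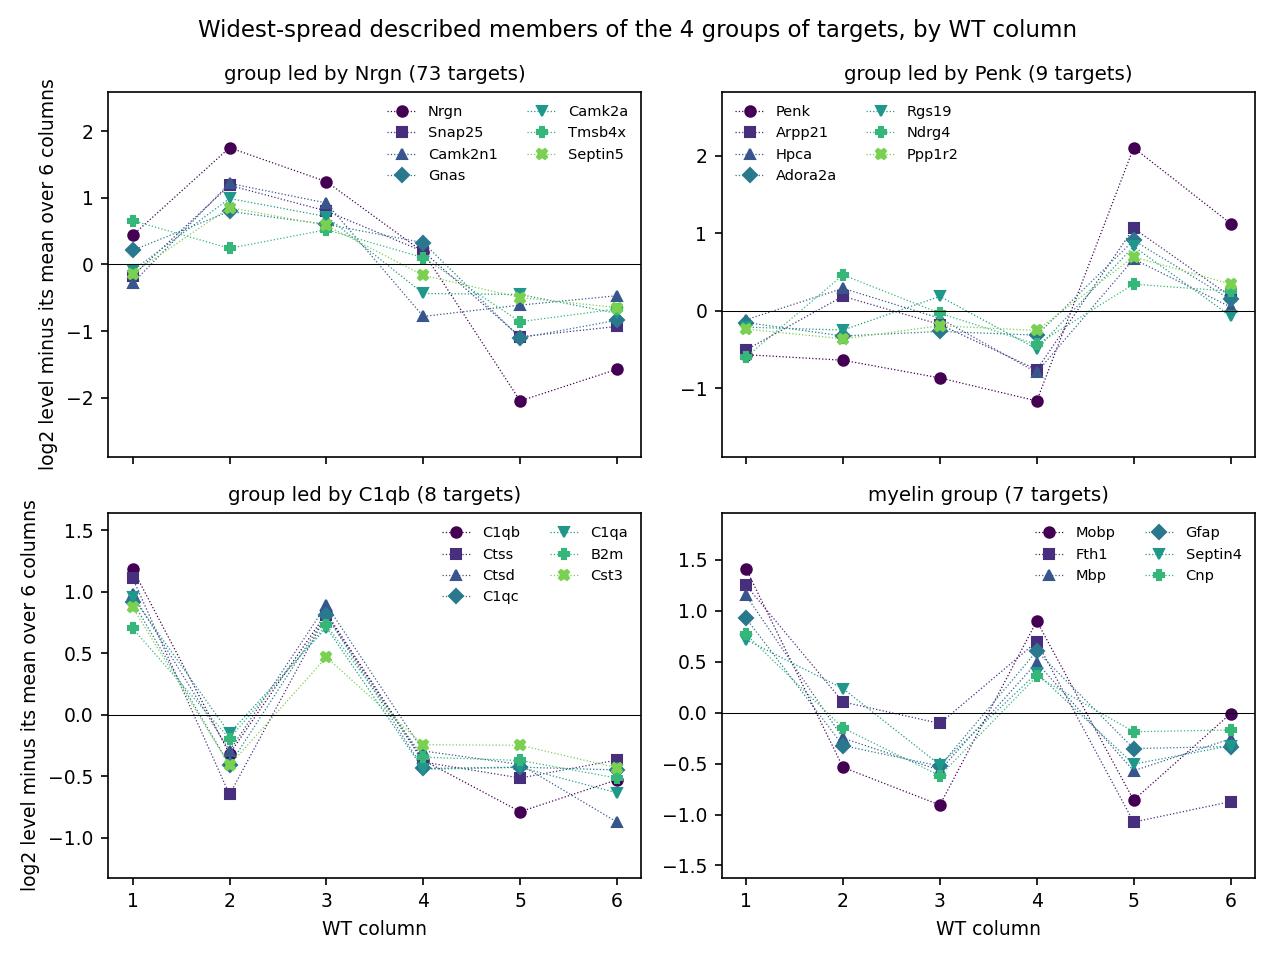
Log2 level minus its mean over the 6 columns (y axis) in each WT column (x axis) for up to 7 widest-spread of the described members of each of the 4 groups. The group led by Nrgn is highest in columns 2 and 3, that led by Penk in column 5, that led by C1qb in columns 1 and 3, and the myelin group in columns 1 and 4; dotted lines only join points of 1 target.

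The group led by Nrgn held 73 targets, of which 15 (20.5%) were on the pan-neuronal or excitatory neuron lists beside 2.24% of the detected targets, with a median pairwise correlation of 0.90 and a lowest of 0.12. Their mean log2 level was 2.46 and 2.20 in columns 2 and 3, 1.72 and 1.84 in columns 1 and 4, and 1.28 and 1.31 in columns 5 and 6. Gnas stood at 8.70, 13.6, 11.4, 9.41, 3.50 and 4.11, with columns 5 and 6 below the other 4. Within the kinase system the order of columns differed a little, as Camk2n1 was lowest in column 4 and Camk2a in column 6. Syp, Syn1, Thy1 and Vsnl1, of synapses and neuronal membranes, had SDs of 0.52, 0.53, 0.49 and 0.58.

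Not every member was a neuronal marker or shared all features of that order. Tmsb4x, an actin-sequestering peptide gene that microglia also express, stood at 8.57, 6.72, 7.82, 5.82, 3.00 and 3.35 and was highest in columns 1 and 3. Egr1, an immediate early gene of active neurons, stood at 2.61, 3.93, 2.97, 2.21, 1.78 and 1.59. The heat shock cognate gene Hspa8, which every cell uses, stood at 5.38, 8.41, 6.38, 5.73, 3.14 and 3.72, and Hsp90aa1 had an SD of 0.38. Of 1520 detected targets, 571 (37.6%) had columns 2 and 3 as their highest pair of ratios. With the mean of the detected targets as the scale the share was 12.3%, so how common this order is depends on the scale. The pair was chosen after the values were seen, and the counts for this and the other pairs below are descriptions.

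For lists of targets, columns 2 and 3 were the highest pair for 21 of 28 pan-neuronal, 13 of 18 excitatory neuron, 15 of 23 calmodulin and calcium, 21 of 27 glycolysis and citric acid cycle and 15 of 25 cytoskeletal targets, beside 13.3% of all targets. Most members of these lists were over 1.5 in some column. Among all such targets the share was 25.9%, and among detected targets 37.6%, so 13.3% is a low yardstick for these lists. With the mean of the detected targets as the scale, the excitatory count was 8 of 18 and the pan-neuronal count 19 of 28. The share was then 2.11% of all targets and 12.3% of detected targets. Synaptic genes were not uniform, since Cplx2, which encodes the vesicle-fusion regulator complexin 2, stood at 5.71, 6.16, 6.02, 5.27, 6.62 and 5.57 with an SD of 0.11, or 0.07 without column 5. Cplx2 correlated with Snap25 at -0.28.

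Several neuronal targets missed the detection limit, all of those named here in column 5 and most also in column 6. Slc17a7 (VGLUT1), which loads glutamate into vesicles of cortical and hippocampal neurons, stood at 4.52, 7.45, 6.23, 6.19, 1.03 and 1.29. In columns 5 and 6 it lay at or below 1.3 times the negative probe, and in the other 4 at 4.5 or more. Mef2c, a transcription factor of neurons and microglia, stood at 2.29, 5.69, 4.89, 2.55, 1.48 and 1.53, and the calcium-binding protein gene Ncald at 2.39, 2.94, 2.87, 3.81, 0.648 and 0.753. Lamp5, a membrane protein of certain cortical neurons, stood at 1.07, 2.60, 2.71, 1.27, 1.07 and 1.01 and the neuropeptide gene Cck at 1.52, 2.68, 2.46, 1.82, 1.07 and 1.01, both highest in columns 2 and 3. Nptx1, a neuronal pentraxin gene, was instead highest in columns 4 and 1, at 3.15, 2.31, 2.00, 4.37, 1.11 and 1.12.

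Led by Penk was a group of 9 targets, namely Penk, Arpp21, Hpca, Adora2a, Rgs19, Ndrg4, Ppp1r2, Rap1gap and Rasl10b. Its mean log2 level was 2.37 in column 5 and 1.76 in column 6, and 0.94 to 1.41 in the other 4 columns. Adora2a, an adenosine receptor of striatal neurons, stood at 1.70, 1.58, 1.58, 1.52, 3.54 and 2.04, and Arpp21, a cyclic AMP-regulated phosphoprotein gene, at 1.93, 3.25, 2.42, 1.61, 5.71 and 3.04. Hpca (hippocalcin) stood at 3.25, 4.50, 3.30, 2.03, 5.59 and 3.56 and Ppp1r2, an inhibitor of protein phosphatase 1, at 1.91, 1.83, 1.98, 1.88, 3.65 and 2.80. In each of these the highest column was 5, but column 6 was close to column 1, 2 or 3 for Arpp21, Hpca and Rgs19 (2.08, 2.12, 2.74, 1.71, 4.27 and 2.25). Ndrg4 was highest in column 2, at 12.8, ahead of 11.3 in column 5. Membership depended on column 5, as only 3 other targets stayed with Penk when that column was left out.

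Targets of the striatum, the forebrain area whose projection neurons use GABA and respond to dopamine, had columns 5 and 6 as their highest pair in 16 of 17 cases, beside 5.08% of all targets. With the mean of the detected targets as the scale it was also 16 of 17, but beside 19.0% of all targets. The exception was Foxp1, a transcription factor also used in cortex, at 1.55, 1.58, 1.39, 1.18, 1.86 and 1.32. Only 3 of the 17 were detected, since most lay near the negative probe in columns 1 to 4. Ppp1r1b, which encodes DARPP-32, the dopamine-regulated phosphatase inhibitor of these neurons, stood at 2.77, 1.45, 1.21, 1.62, 10.2 and 7.10. The peptide gene Tac1 stood at 1.31, 1.41, 1.18, 1.36, 3.75 and 2.90, the phosphodiesterase gene Pde10a at 1.11, 0.767, 0.828, 0.858, 3.20 and 1.87, and Adcy5, the main striatal adenylyl cyclase, at 1.73, 1.52, 1.41, 1.33, 4.29 and 2.61. The dopamine receptor gene Drd1 reached 2.39 in column 5 and 1.57 in column 6, and Drd2 reached 1.78 and 1.28.

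GABA markers moved with them in part. Gad2 stood at 1.13, 1.28, 1.28, 1.33, 3.20 and 2.49 and the vesicular GABA transporter gene Slc32a1 at 1.14, 1.69, 1.29, 0.924, 2.65 and 2.03, both highest in columns 5 and 6. Gad1, at 3.39 in column 2, was as high there as in columns 5 and 6. No source used here names the brain area of a column, and its part in these differences was not tested. Across the 6 columns Penk correlated with Ppp1r1b at 0.95 and with Nrgn at -0.88, and without columns 5 and 6 the value for Nrgn was 0.46.

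**Figure D3:**
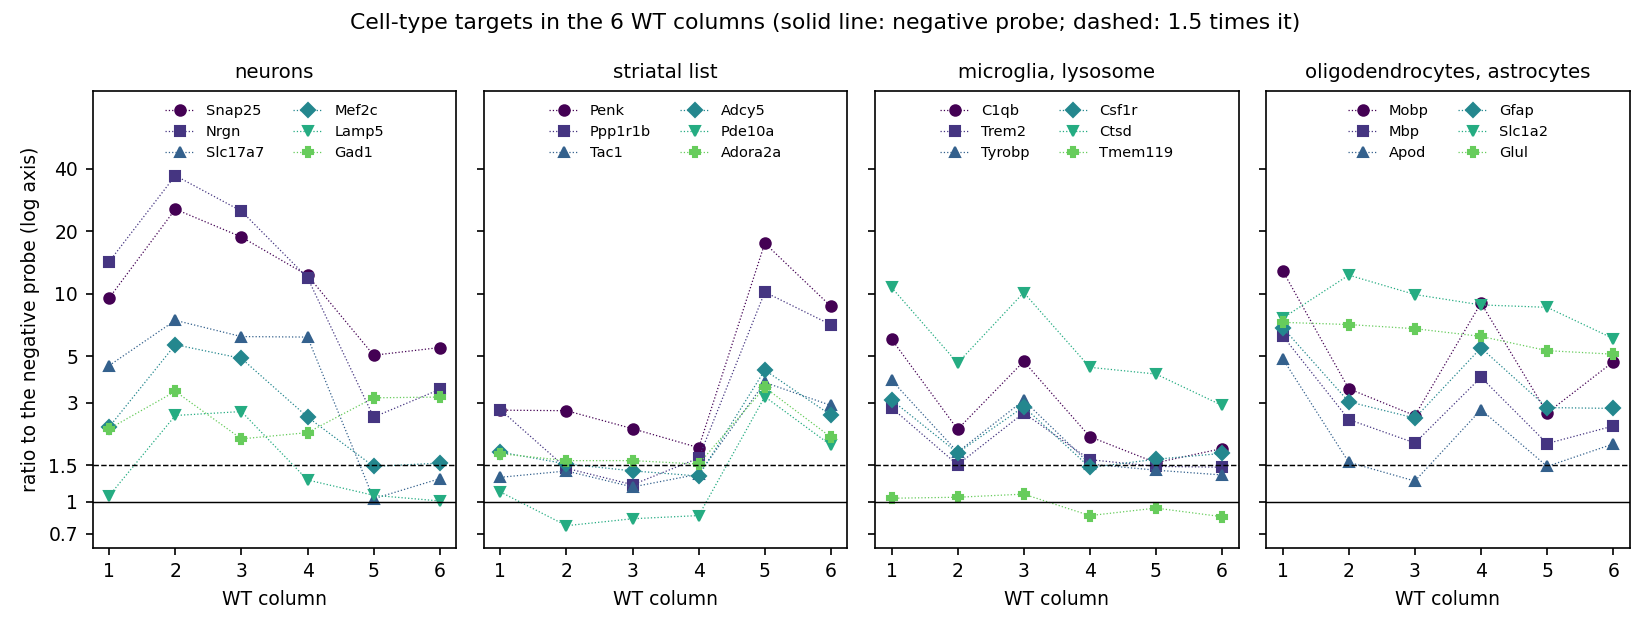
Ratio to the negative probe (y axis, log scale) in each of the 6 WT columns (x axis) for 6 targets from each of 4 sets; the solid line marks the negative probe and the dashed line 1.5 times it. Slc17a7 and Ppp1r1b change places between columns 1 to 4 and columns 5 and 6, and Tmem119 stays between 0.85 and 1.09.

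Complement, lysosomal and antigen presentation genes, together with Cst3 and Apoe, made up the 8 targets of the group led by C1qb. This group was the most uniform, with a lowest pairwise correlation of 0.89. Its mean log2 level was 2.70 and 2.51 in columns 1 and 3 and 1.27 to 1.46 in the other 4. C1qb stood at 6.05, 2.23, 4.73, 2.05, 1.54 and 1.80, C1qa at 5.18, 2.51, 4.38, 1.96, 1.99 and 1.68 and C1qc at 5.15, 2.14, 4.78, 2.01, 2.03 and 1.95, the 3 chains of complement C1q, which microglia make. In each, columns 1 and 3 were above 4 and the other 4 columns were under 2.6. C1qb correlated with C1qa at 0.97 and with C1qc at 0.98.

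The other members followed the same columns. Ctsd, the protease cathepsin D, stood at 10.7, 4.64, 10.1, 4.43, 4.11 and 2.90, and Ctss (cathepsin S), which is typical of microglia, at 5.75, 1.77, 4.69, 2.04, 1.86 and 2.02. B2m (beta-2-microglobulin), which pairs with MHC class I chains, stood at 4.35, 2.44, 4.45, 2.10, 2.07 and 1.83. Cst3, which inhibits proteases such as cathepsin S, stood at 17.7, 7.58, 13.4, 8.13, 8.12 and 6.99, a smaller difference on a higher base. Apoe, with an SD of 0.38, was at least 9.42 in columns 1 and 3 and at most 6.81 in the others.

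Columns 1 and 3 held the highest values of this group, so a lower spread without them follows from that choice and is not a separate result. Without them the SD went from 0.80 to 0.21 for C1qb, from 0.76 to 0.28 for Ctsd and from 0.54 to 0.10 for Cst3. For C1qc it went from 0.67 to 0.02, under its counting SD of 0.107 over all 6 columns. The correlation of C1qb with Ctsd went from 0.95 to 0.27. Without those 2 columns C1qb was no longer among the 100 widest targets.

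Most microglial targets under the detection limit had the same order. Of all 26 microglial targets, detected or not, 20 had columns 1 and 3 as their highest pair, beside 5.41% of all targets. Of 30 lysosomal and antigen presentation targets 17 did. Both counts include detected members of the group led by C1qb, in which this order was seen first. With the mean of the detected targets as the scale the counts were 20 and 18, beside 2.17%. Tyrobp (DAP12), a signalling adaptor, stood at 3.84, 1.73, 3.07, 1.52, 1.42 and 1.34 and its partner receptor Trem2 at 2.83, 1.51, 2.67, 1.59, 1.48 and 1.47. Lgmn (legumain), a lysosomal protease, stood at 3.07, 1.68, 2.53, 1.75, 1.26 and 1.40. The 6 microglial targets with another highest pair were Tmem119, P2ry13, Spi1, Ptprc, Gpr34 and Cd53. Spp1 and Cst7, known from activated microglia, stood at 1.94, 1.55, 1.91, 0.952, 0.911 and 1.05 and 2.23, 1.76, 2.23, 1.62, 1.42 and 1.38.

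Aif1 was the least variable of the 5 detected microglial targets, with a 1.45-fold difference and an SD of 0.21, and correlated with C1qb at 0.87. Of 15 targets for border macrophages and blood leukocytes 0 were detected, beside 7.61% of all targets. In a list this short that is near the background share and is not read as a result about these cells. The mean ratio of the list for these cells was 1.00 to 1.08 in all 6 columns. Their mannose receptor marker Mrc1 stood at 0.873, 0.994, 0.858, 0.895, 0.972 and 0.914. Of 78 ribosomal protein targets 23 also had columns 1 and 3 as their highest pair, as did 0 of 25 astrocyte targets.

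Myelin genes such as Mobp, Mbp and Cnp lay in a group of 7 targets that also included Fth1, Gfap and Septin4, with a lowest pairwise correlation of 0.74. Its mean log2 level was 3.00 in column 1, 2.56 in column 4, and 1.28 to 1.77 in the others. Mobp stood at 12.9, 3.49, 2.59, 9.03, 2.67 and 4.71. Mbp, the myelin basic protein gene, stood at 6.28, 2.48, 1.92, 3.97, 1.90 and 2.31, and Cnp, an enzyme of myelinating cells, at 4.01, 2.21, 1.54, 3.01, 2.07 and 2.04. Column 3 was lowest or nearly so for these 3, in contrast to the C1q genes, which were high there.

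Of 23 oligodendrocyte targets, 15 had columns 1 and 4 as their highest pair, beside 5.69% of all targets, or 17 beside 8.27% with the mean of the detected targets as the scale. Among those under the detection limit, the apolipoprotein gene Apod stood at 4.88, 1.55, 1.26, 2.77, 1.48 and 1.90, the transferrin gene Trf at 3.58, 2.43, 2.00, 2.87, 1.48 and 1.98 and the carbonic anhydrase gene Car2 at 3.37, 1.77, 1.66, 2.83, 1.28 and 1.59. Mog, a late myelin glycoprotein, stood at 1.72, 1.42, 0.938, 1.46, 0.891 and 1.28. The SD without columns 1 and 4 went from 0.96 to 0.41 for Mobp and from 0.68 to 0.18 for Mbp. Both were highest in those columns, so this fall follows from leaving them out.

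Gfap, the only astrocyte target among the 100 widest, lay in the myelin group. It correlated with Mbp at 0.98 but with Slc1a2 at -0.24 and Glul at 0.45. Its difference was 2.73-fold. Without columns 1 and 4, where it was highest, its SD went from 0.61 to 0.10, a fall that follows from leaving them out. Of the 25 astrocyte targets, 1 had columns 1 and 4 as its highest pair, and that was Gfap. The mean log2 level of the 13 detected astrocyte targets ranged over 0.31, against 1.99 for oligodendrocyte, 1.34 for microglial and 0.78 for pan-neuronal targets. GFAP protein was used to outline segments of the series, so Gfap is also a gene by whose product areas were chosen.

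Fth1 was a further member that is not a myelin gene. Its 5.01-fold difference combined the myelin order, with 35.4 in column 1 and 24.1 in column 4, with low values in columns 5 and 6. It correlated with Mobp at 0.78. The ferritin light chain gene Ftl1 stood at 2.47, 1.96, 2.48, 1.88, 2.01 and 1.57, and its correlation with Ctsd was 0.97. Other genes most like Gfap and Mbp in pattern were Dbndd2 (0.99 with Gfap), Gstp1, a glutathione transferase gene (0.97 with Gfap), and Qk, an RNA-binding protein of oligodendrocytes and astrocytes (0.96 with Mbp).

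**Figure D4:**
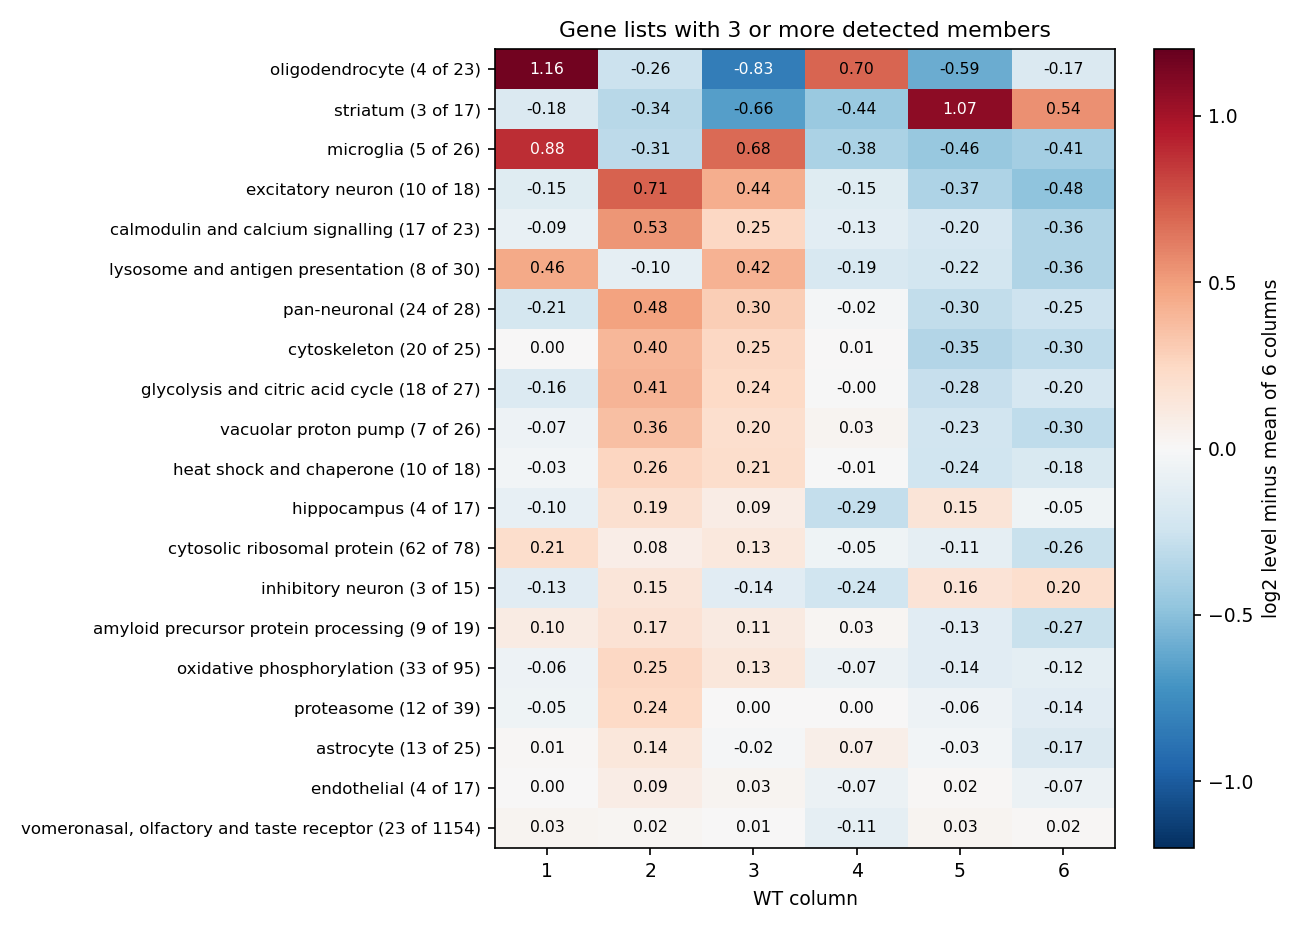
Mean log2 level of the detected members of each gene list in each WT column (x axis), minus the list's mean over the 6 columns, for the lists with 3 or more detected members (detected of measured in brackets). Oligodendrocyte, striatal, microglial and excitatory neuron lists differ most between columns, while the astrocyte, endothelial and receptor lists stay within a log2 range of 0.31, 0.16 and 0.14.

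The groups were not simply opposites of each other. The mean level of the group led by C1qb correlated with that of the myelin group at 0.34 and with that led by Nrgn at 0.29, all over 6 columns. That led by Penk correlated with the group led by Nrgn at -0.59 and with the myelin group at -0.68. Column 1 was high for both the group led by C1qb and the myelin group, column 3 for the groups led by C1qb and Nrgn, and column 4 for the myelin group alone.

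Of the 3 remaining widest targets, the neurofilament gene Nefm stood at 1.96, 3.28, 3.19, 1.74, 1.96 and 3.11 and Vstm2b at 2.36, 2.48, 2.09, 1.54, 2.19 and 3.48, and both were higher in column 6 than in columns 4 and 5. Pcp4, a calmodulin-binding peptide gene, stood at 3.93, 3.49, 1.94, 3.82, 3.97 and 4.34, with column 3 lowest and the other 5 between 3.49 and 4.34.

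At the other end, some targets varied by less than counting error. Among the detected targets within the 500 of highest mean ratio, R3hcc1 had the smallest SD, 0.06. It stood at 2.33, 2.51, 2.58, 2.35, 2.45 and 2.47. Pdia6, a protein disulfide isomerase gene, stood at 2.76, 3.15, 2.85, 2.59, 2.82 and 2.69, the proteasome subunit gene Psmb6 at 2.59, 2.97, 2.43, 2.50, 2.73 and 2.55 and the RNA-binding protein gene Hnrnpk at 2.68, 3.02, 2.79, 2.46, 2.53 and 2.62. The ratio of R3hcc1 differed by 1.11-fold between columns and Hnrnpk by 1.23-fold. Housekeeping genes were not all steady, as Gapdh differed by 2.08-fold and Ppia by 2.53-fold, both with columns 2 and 3 highest. Ubb differed by 1.74-fold and Psap by 1.62-fold.

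Lists with little spread included the endothelial one, with a median SD of 0.129 over 4 detected members against 0.165 for all detected targets, and the receptor targets, with 0.133 over 23. Of the 20 lists with 3 or more detected members, 18 had a median SD above that of all detected targets. Members detected through all 6 columns leave out those that drop to background in some, such as Slc17a7 and Ppp1r1b, so these medians describe detected members only.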

How the data were processed

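GeoMx probe tags from captured areas of mouse brain sections were sequenced on an Illumina instrument, per the labels' protocols. The deposited unit is a probe signal with no value below 0, and no source used here names the software, probe filters or scaling. Values moved in equal steps within a column, with 19959 of 19963 rows a whole number of steps within 0.000001, and signal over step gave the implied counts. All 6 columns share a median signal of 86.7, so the authors scaled them to a common median.

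Each column was divided by its negative probe, and a target was detected with a ratio over 1.5 in all 6 columns. Log2 levels were taken of signal over the column median, with no pseudocount, and their SD was set against the Poisson SD of the implied counts. The 100 widest targets were grouped by average linkage on 1 minus Pearson's r, joined down to r = 0.5. The steps recovered groups set in simulated data, scored by the share of each group that came from 1 set. Those sets used the column pairs seen here with Poisson error only. They were simpler than the groups described above, so this does not show how separate the latter are. Counting SDs cover counting error only.

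The members and the 32 gene lists were chosen with earlier results of these data known. The targets named are the 30 of highest mean ratio, the 30 of widest spread, up to 4 of highest ratio and the widest and steadiest detected members of each list, the targets most and least like 7 anchors, the 10 steadiest among the 500 of highest ratio, up to 5 members per group, and Tmem119, Gfap, Lyn and Tlr4. Targets under the detection limit and other members of groups, lists and the receptor background were named after their values were seen. Some targets that these rules name are not reported here. List targets of the mitochondrial genome had no row here. Alternatives were other scalings, filters, measures of spread and columns left out. Python 3.11.15 with numpy 2.4.6, pandas 2.3.3, scipy 1.17.1 and matplotlib 3.10.9 was used, and sequences came from RefSeq tables.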

Additional observations from a re-analysis of the deposited data

Results flagged for a closer look

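Of 120 targets named in the text, 2 had a single column far from the other 5, where chance would mark about 1 in 20. Pcp4 was low in column 3, at 1.94 times the negative probe, and the gap to the next column took 0.659 of its whole range on the log2 scale. Nnat, the imprinted neuronatin gene, was high in column 5, at 3.42 against 0.965 to 1.47 in the others, and the gap took 0.644 of its range. The cause of neither was tested.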

How the results depend on the processing

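No paired analysis was possible because all columns belong to 1 genotype and no comparison was made. Over all alternatives 507 of 556 values were within the limits of change, 48 moved and 1 reversed. The limit was a 1.5-fold change from the main value, or a set difference for correlations. Some values could not change, since a ratio over 2 only removes targets and leaves the SD of those kept. Values lost together with their target were not counted, so these counts do not measure how stable the results are. The count of detected targets, 1520, was 418 with a ratio over 2 and 3357 with a mean ratio over 1.5, both by construction of the limit, and 1535 to 1822 when 1 column was left out. The median spread, 0.165, was 0.335 with the negative probe subtracted before the log and 0.438 as a range in place of an SD, and 0.147 to 0.169 when 1 column was left out. The first component took 50.2% to 62.5% of the spread when 1 column was left out. The number of lists with a median spread above that of all detected targets was then 17 to 19. It was 15 with the mean of the detected targets as the scale and 15 without columns 1 and 3. With a ratio over 2 that number was 12, out of fewer lists with enough members, and Penk and C1qb no longer met the limit. Their groups were followed only through these targets, so whether the other members stayed together was not tested. The correlation of Penk with Nrgn turned from -0.88 to 0.46 without columns 5 and 6, which were chosen after the data were seen, as were columns 1 and 3. Of the 9 targets of the group led by Penk, Penk included, 4 were still grouped without column 5, 3 with columns 5 and 6 averaged and 5 by Spearman's rho. Without columns 5 and 6 it was lost, 32 of the 73 targets of the group led by Nrgn, Nrgn included, stayed in it, and 18 of the 30 widest targets stayed among the 30 widest. The depth of 55 to 118 counts for the median target limits what can be said of targets under a ratio of 2, and for these a fold difference is understated because background was not subtracted. Whether the areas share an animal, and which brain area each covers, was not tested.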

Other observations

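Targets known from the same cell type or brain area did not always share an order of columns or a size of difference. The mouse metallothionein genes Mt1 and Mt2, which astrocytes express, had columns 4 and 5 as their highest pair, at 2.47, 2.13, 2.11, 2.72, 3.38 and 2.39 and 1.70, 1.63, 1.64, 2.05, 2.03 and 1.94 in columns 1 to 6, unlike Slc1a2 and Gfap. Rap1gap, a Rap GTPase regulator, stood at 2.24, 3.11, 2.51, 2.48, 4.96 and 3.08 with its neighbours in the group led by Penk, and the opioid precursor gene Pdyn, known from the same area as Penk, stood at 1.64, 1.42, 1.66, 1.46, 2.47 and 2.16, a smaller difference than that of Penk.

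Septin genes were split between groups. Septin5, of synaptic vesicles, stood at 3.25, 6.74, 5.38, 3.19, 2.53 and 2.23 and lay with Nrgn, whereas Septin4 stood at 3.73, 2.80, 1.60, 2.97, 1.60 and 1.77 and lay in the myelin group. In column 3 the first was near its highest value and the second at its lowest.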
